A study of Mus musculus with 2 samples.

Results

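Teneurins, latrophilins and Flrt proteins are cell-surface molecules that bind one another across and along neuronal membranes. The 10 genes that encode them, Tenm1 to Tenm4, Adgrl1 to Adgrl3 and Flrt1 to Flrt3, were taken by symbol. No measured value was used in the choice, although earlier results of these data were known. All 10 were found among the 43346 genes of the deposited tables. They were read in 2 total RNA-seq libraries of mouse hindbrain, the part of the brain that forms cerebellum, pons and medulla, at embryonic day 14.5 in strain B6NCrl. Both libraries form 1 group with no treatment, allele or other condition, so the data describe levels in this tissue and how far replicates 1 and 2 differ. Each library was made from 10 ng of RNA longer than 200 nt. The labels name 1 hindbrain of 1 pup for each sample, yet give its sex as pooled and give both samples the same donor identifier. The collection dates differ, so date and replicate cannot be told apart, and whether a difference between the replicates is technical was not tested.

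Genes received 33727967 and 32450651 expected counts in replicates 1 and 2, where an expected count is the estimated number of reads assigned to a gene. Spike-in RNA took 8.15% and 7.72% of TPM. TPM is a level per transcript length, a share of all features of the file, so it can be compared between genes. Of the markers of the labelled tissue, all 5 neuronal and all 5 progenitor genes and 5 of 6 hindbrain position genes reached 1 TPM in both replicates. Egr2 was the hindbrain marker below that level. Of the forebrain position genes, Lhx2 reached it, and Emx1, Emx2 and Six3 were below it. The summed choroid plexus markers stood at 1888 TPM in replicate 1 and 1135 TPM in replicate 2, with Ttr at 1825 and 1094 TPM and Kl below 1 TPM.

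Teneurins are large single-pass proteins whose extracellular part carries EGF-like repeats, which link them into dimers, and a beta-propeller next to a barrel-shaped domain. They bind each other between cells and also bind latrophilins, which are adhesion G-protein-coupled receptors with a lectin-like and an olfactomedin-like domain. Flrt proteins carry leucine-rich repeats, bind the olfactomedin-like domain of latrophilins, and bind Unc5 netrin receptors. In developing brain these contacts are known for axon guidance, cell migration and the choice of synaptic partners. Short spliced inserts in teneurins and latrophilins are known to alter which partners bind.

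All 10 genes were expressed in both hindbrains, and the latrophilin receptors were the most abundant of the 3 families. Every member reached 1 TPM, the level used here for detection, in both replicates. The 3 latrophilins summed to 210.0 and 211.0 TPM, the 4 teneurins to 113.0 and 122.9 TPM, and the 3 Flrt genes to 66.6 and 71.9 TPM. As a share of the summed TPM of all 10 genes, latrophilins held 53.9% and 52.0%, teneurins 29.0% and 30.3%, and Flrt genes 17.1% and 17.7%. The replicate ranges of the 3 family totals did not overlap. In bulk tissue, fewer cells of a type and less RNA per cell cannot be told apart.

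Among the receptors, Adgrl2 stood at 94.6 TPM in replicate 1 and 95.1 TPM in replicate 2, the highest level of the 10 genes. Adgrl2 lies on the minus strand of chromosome 3 (chr3:148815583-148990555, GRCm38, as all coordinates here). Of 13622 protein-coding genes whose mean reached 1 TPM (median 19.3 TPM), 87.5% lay below Adgrl2. Adgrl3 (chr5:81020138-81825133, plus strand) stood at 57.3 and 61.1 TPM. Adgrl1 (chr8:83900105-83941954, plus strand) stood at 58.1 and 54.8 TPM. Adgrl3 was the higher of these receptors in replicate 2 and Adgrl1 in replicate 1, so their order was not resolved, while Adgrl2 was 1.60 times the mean of Adgrl3 with separate replicate ranges.

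Among the teneurins, Tenm3 (chr8:48227682-48843951, minus strand) had the highest gene level, 36.0 and 40.9 TPM. Tenm4 (chr7:96171246-96911093, plus strand) followed with 29.4 and 30.4 TPM. Tenm2 (chr11:36006656-37235964, minus strand) gave 23.7 and 26.9 TPM. The X-linked Tenm1 (chrX:42527866-43429126, minus strand) gave 24.0 and 24.8 TPM. The ranges of Tenm2 and Tenm1 overlapped, whereas those of Tenm3, Tenm4 and Tenm2 lay apart from one another.

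Of the Flrt ligands, Flrt3 (chr2:140650914-140671469, minus strand) had 32.4 and 37.4 TPM and Flrt2 (chr12:95692226-95785215, plus strand) 27.3 and 26.8 TPM. Flrt1 (chr19:7092001-7105729, minus strand) had 6.86 and 7.68 TPM, the lowest level of the 10 genes, and exceeded 26.1% of the expressed protein-coding genes. The next gene above it, Tenm1, had 3.35 times its mean level. Down the whole order, the neighbours Adgrl3 and Adgrl1, Tenm3 and Flrt3, Flrt2 and Tenm2, and Tenm2 and Tenm1 had overlapping replicate ranges. The other neighbours did not, although the deposited intervals of Flrt3 and Tenm4, and of Tenm4 and Flrt2, overlapped in replicate 1.

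**Figure D1:**
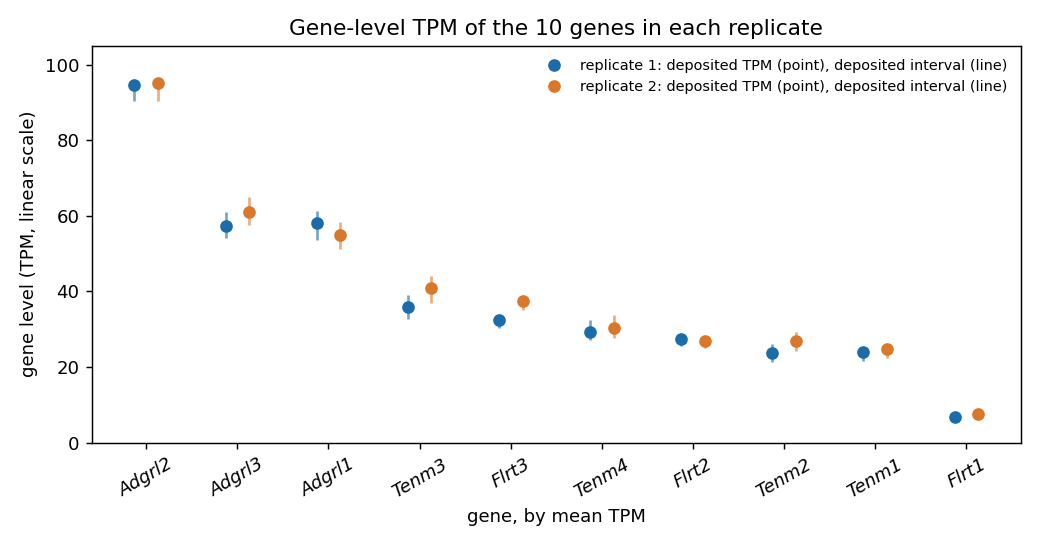
Gene level (TPM, linear axis) of the 10 genes in each replicate, ordered by mean. Points are the deposited TPM and lines the deposited interval, which surrounds the posterior mean and so can lie below the point, as for Adgrl2 in both replicates. Adgrl2 stands above the rest near 95 TPM and Flrt1 below the rest near 7 TPM.

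The gene level adds short and noncoding transcripts to those that encode the whole protein, and this mattered for the teneurins. A transcript was counted as full-length coding where its coding sequence reached 75% of the gene's longest, in the GENCODE M21 annotation. By this measure Tenm2 stood at 14.8 and 17.0 TPM and Tenm3 at 15.9 and 14.9 TPM. Tenm4 stood at 8.42 and 7.84 TPM, and Tenm1 at 5.62 and 5.88 TPM. The order of the teneurins thereby changed: Tenm4, above Tenm2 in gene TPM in both replicates, lay below it in both. The full-length share of gene TPM was 23.6% for Tenm1, 27.2% for Tenm4, 40.4% for Tenm3 and 62.8% for Tenm2 (means of the replicates). Of the expected counts, the same transcripts held 65.2%, 84.2%, 62.2% and 94.5%.

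These shares differ because TPM divides counts by length, so a few counts on a short transcript weigh as much as many on a long one. Tenm4-209, a 708-nt form with 303 coding bases (chr7:96210154-96553482, 5 exons), had 210 expected counts in each replicate and 16.2 and 17.6 TPM. Tenm4-201, 13547 nt long, had 1656 and 1352 counts and 5.76 and 5.15 TPM. Tenm4-209 thus led the gene by share of TPM, 56.5% ± 2.03 (SD, n = 2), and Tenm4-201 by share of counts, 56.7% ± 1.65. In Tenm1, the leading form by TPM was Tenm1-204, a noncoding processed transcript of 1143 nt, at 45.3% ± 0.0405. It lies at chrX:43323955-43429003, wholly upstream of the start of Tenm1-203, the leading form by counts with 60.0% ± 0.237. A second noncoding form, the retained-intron transcript Tenm1-206, held 28.7% of Tenm1 TPM, and Tenm1-203 20.8%.

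Tenm2 was led by the coding transcript Tenm2-202 on both scales, with 62.7% ± 0.494 of TPM and 94.4% of counts. The 368-nt processed transcript Tenm2-207 held 24.2% of its TPM from 32 and 35 counts. Tenm3 had a different leading form in each replicate. Its coding transcript Tenm3-201 stood at 11.5 and 8.79 TPM and led in replicate 1, while the 639-nt Tenm3-202, with 172 coding bases, stood at 7.37 and 12.3 TPM and led in replicate 2. The coding length of Tenm3-202 is not a whole number of codons, so its annotated coding sequence is incomplete. Whether its reads come from a longer form was not tested. Tenm3-206, full length like Tenm3-201, stood at 4.41 and 6.15 TPM, and the short coding Tenm3-204 at 5.04 and 3.98 TPM. A further Tenm3 transcript of 7827 nt, which M21 does not list, had 7.42 and 9.17 TPM. If it encodes the whole protein, the full-length level of Tenm3 becomes 23.4 and 24.1 TPM, the highest of the teneurins in both replicates.

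Latrophilin receptors divided by the same measure. Adgrl2 kept 81.6 and 80.6 TPM and Adgrl1 46.9 and 50.0 TPM as full-length coding transcripts. Adgrl3 kept 17.5 and 19.3 TPM, 31.1% of its TPM and 52.0% of its counts. Adgrl1 and Adgrl3, whose order was unresolved at the gene level, were thus apart in both replicates by this measure, with Adgrl1 higher. With a minimum of 90% of the longest coding length, Adgrl3 stood at 3.64 and 5.66 TPM. Its common coding forms lack part of the longest one. The listed transcripts number 3 for Adgrl2, 10 for Adgrl1 and 32 for Adgrl3. How far these unequal listings set the division of the receptors was not tested.

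Adgrl3 was spread over 32 listed transcripts, 13 of them listed at 0 in both replicates. Its 5 forms with at least 10% of TPM were Adgrl3-228 (12.7%, retained intron), Adgrl3-220 (12.4%, short coding), Adgrl3-232 (11.6%, processed transcript), Adgrl3-211 (11.2%) and Adgrl3-204 (11.1%). The last 2 of these are full-length coding. The annotated coding sequence of Adgrl3-220, 2617 bases, is not a whole number of codons and so is incomplete. Adgrl1 was held by Adgrl1-207, a full-length form, at 81.1% ± 5.62. Its 756-nt processed transcript Adgrl1-206 stood at 10.6 TPM in replicate 1 and 4.19 TPM in replicate 2, from 149 and 54 counts, a gap larger than that of the gene's whole TPM. Adgrl2 was held by Adgrl2-202 at 85.5% ± 1.02, with the retained-intron Adgrl2-201 at 14.2%. The deposited tables list 3 Adgrl2 transcripts where M21 lists 20, so most annotated Adgrl2 splice forms were not measured.

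The Flrt genes have their whole coding sequence in 1 exon, and almost no other form of them is listed. Flrt1 has 1 listed transcript. Flrt2-201 and Flrt2-202, with the same coding length of 1980 bases, held 81.3% ± 0.706 and 18.7% of Flrt2 TPM. Flrt3-202 and Flrt3-201, with the same coding length of 1947 bases, held 78.6% ± 5.72 and 20.2% of Flrt3 TPM. Full-length coding transcripts made up 100% of Flrt1 and Flrt2 and 98.8% of Flrt3. For Flrt1 and Flrt2 this value was fixed in advance, since no other form of them is listed. Summed by family, they came to 147.9 ± 2.80 TPM for latrophilins, 68.8 ± 3.90 TPM for Flrt genes and 45.2 ± 0.651 TPM for teneurins (SD, n = 2). Flrt genes thus lay above teneurins in both replicates by this measure, the reverse of the gene-level order. With the unlisted Tenm3 transcript added, the teneurin level would rise by 8.30 TPM, which keeps that order. Each teneurin has from 6 to 12 listed transcripts, short and noncoding forms among them. How far the listing of forms sets this order was not tested.

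**Figure D2:**
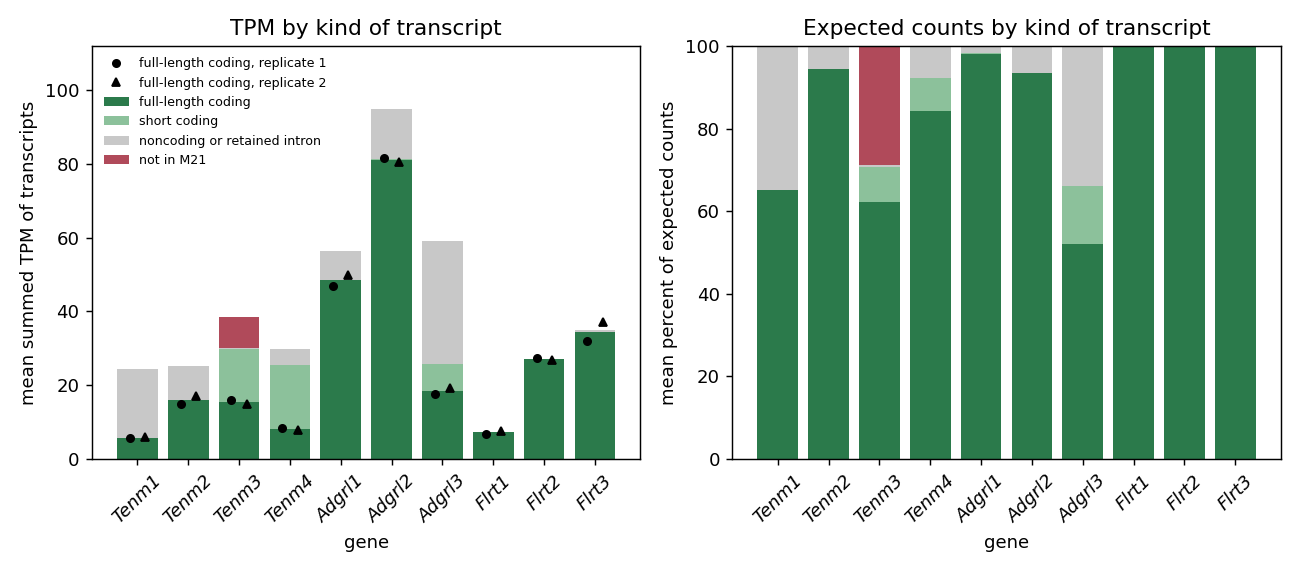
Left, mean summed TPM of each gene's transcripts by kind, with full-length coding TPM of each replicate as black marks; right, mean percent of expected counts by kind. Full-length forms hold 23.6% of Tenm1 TPM but 65.2% of its counts, and nearly all of each Flrt gene on both scales.

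Teneurin and latrophilin genes carry small exons whose lengths are multiples of 3, so that skipping one removes a few residues and keeps the frame. M21 gives 15 such coding exons of at most 30 nt in the 10 genes, all in teneurins and latrophilins. The exons printed here have a counterpart in another member, so that their sequence and use can be compared between genes. The first set is a 21-nt exon found once in each teneurin, which encodes an insert in the beta-propeller. Capitals mark the exon and the 9 lower-case letters on each side the neighbouring exons of the spliced transcript, read 5′ to 3′ on the gene's strand.
Tenm1 21-nt exon: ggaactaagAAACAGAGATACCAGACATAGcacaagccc
Tenm2 21-nt exon: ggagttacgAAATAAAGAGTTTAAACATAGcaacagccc
Tenm3 21-nt exon: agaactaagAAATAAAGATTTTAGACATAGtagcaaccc
Tenm4 21-nt exon: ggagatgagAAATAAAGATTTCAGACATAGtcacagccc
They lie at chrX:42648394-42648414, chr11:36054926-36054946, chr8:48287133-48287153 and chr7:96854717-96854737. The exons of Tenm3 and Tenm4 share 20 of 21 bases, those of Tenm2 and Tenm3 share 19, and those of Tenm1 and Tenm2 share 14, the fewest of the 6 pairs.

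Inclusion of the 21-nt exon differed among the teneurins. It is given as the TPM of transcripts that hold the exon, as a percent of these and of transcripts that skip it. These are estimates for whole transcripts, not counts of reads across the junctions. For Tenm4 inclusion was 31.6% in replicate 1 and 34.3% in replicate 2, so the skipping form Tenm4-201 held most of the TPM of the 3 Tenm4 forms that include or skip it. For Tenm3 it was 71.4% and 57.2%, above Tenm4 in both replicates. The unlisted Tenm3 transcript could hold or lack the exon. This gives 48.9% to 80.4% in replicate 1 and 35.8% to 73.2% in replicate 2. The lower bounds lay above Tenm4, in replicate 2 only narrowly. By posterior mean TPM, another deposited estimate, the lower bound of replicate 2 lay below the 34.9% of Tenm4. With that transcript, the order of Tenm3 and Tenm4 in replicate 2 was therefore not settled. For Tenm1 the skipping form Tenm1-202 was listed at 0 TPM in both replicates. By posterior mean TPM, Tenm1 inclusion was 80.0% and 88.9%. For Tenm2 every listed coding form that spans the site holds the exon, so no skipping form was measured.

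The second set is a 27-nt exon in the EGF-like repeats of Tenm3 and Tenm4, with a shorter counterpart of 24 nt in Tenm1, shown because it is the other small exon that these teneurins share.
Tenm1 24-nt exon: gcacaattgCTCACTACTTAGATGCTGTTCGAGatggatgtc
Tenm3 27-nt exon: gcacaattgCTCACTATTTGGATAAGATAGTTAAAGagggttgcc
Tenm4 27-nt exon: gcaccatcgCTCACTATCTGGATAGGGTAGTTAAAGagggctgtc
They lie at chrX:42727337-42727360, chr8:48313238-48313264 and chr7:96805105-96805131, and the 27-nt exons share 24 of 27 bases. Inclusion was 72.3% and 58.8% for Tenm3 and 30.9% and 33.8% for Tenm4. With the unlisted Tenm3 transcript as skipping or including, Tenm3 ranges from 49.3% to 81.1% in replicate 1 and from 36.5% to 74.5% in replicate 2. In the tables both small exons of Tenm3 are included by Tenm3-201 alone and skipped together by Tenm3-206, and both of Tenm4 are included by Tenm4-202 and Tenm4-203, so the values of each pair are not independent. For Tenm1 all 3 listed full-length forms hold the 24-nt exon. The lengths of Tenm3-201, Tenm3-206, Tenm4-201 and Tenm4-202 in the deposited tables differ from M21, so their exon content rests on the later annotation. Of the forms that set the Tenm4 value at the 21-nt exon, Tenm4-203 alone has the same length in both.

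Latrophilins share a small exon near the 5′ end of the coding sequence, between the parts for the lectin-like and olfactomedin-like domains, of 15 nt in Adgrl1 and Adgrl3 and of 12 nt in Adgrl2. The insert it encodes is known to lower binding to teneurins, which is why it is shown.
Adgrl1 15-nt exon: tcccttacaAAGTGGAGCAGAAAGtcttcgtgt
Adgrl2 12-nt exon: tcccttacaTGGAGCAAAAAGtctttgtgt
Adgrl3 15-nt exon: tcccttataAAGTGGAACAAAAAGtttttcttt
They lie at chr8:83926262-83926276, chr3:148860427-148860438 and chr5:81509724-81509738, and the 15-nt exons share 13 of 15 bases. Adgrl1 and Adgrl3 were far apart in its use. In Adgrl1 the exon was in 4.33% and 6.61% of TPM, since the main form Adgrl1-207 skips it. In Adgrl3 it was in 68.2% and 64.2%. The forms of Adgrl3 that skip it and had TPM are annotated as noncoding, and among protein-coding Adgrl3 transcripts inclusion was 100% in both replicates. For Adgrl2 the measured form Adgrl2-202 skips the 12-nt exon, and the M21 forms that hold it are not among the listed transcripts.

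A 27-nt exon farther 3′ in Adgrl2 and Adgrl3, at chr3:148827212-148827238 and chr5:81757986-81758012, is shown because, of the 10 exons with both forms in the tables, its inclusion in Adgrl3 was nearest to even.
Adgrl2 27-nt exon: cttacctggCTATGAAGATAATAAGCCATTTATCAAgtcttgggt
Adgrl3 27-nt exon: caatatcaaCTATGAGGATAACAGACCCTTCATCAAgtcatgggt
The exons share 21 of 27 bases. In Adgrl3 transcripts that hold it had 13.7 and 16.9 TPM and those that skip it 17.2 and 17.6 TPM, an inclusion of 44.4% and 49.1%. Among protein-coding Adgrl3 transcripts inclusion was 28.6% and 36.0%. In Adgrl2 the main form Adgrl2-202 holds it, and no listed form skips it. M21 has 11 Adgrl2 forms that skip it and 2 that hold it, so its inclusion in Adgrl2 was not measured. Of the 18-nt exons near the 3′ end of the coding sequence, that of Adgrl1 was in 99.6% and 100% of TPM. Its only listed skipping form is the 639-nt short coding Adgrl1-203, with 2 and 0 counts. No full-length skipping form was therefore measured. Adgrl3 transcripts that hold its 18-nt exon had 3.40 and 5.13 TPM and those that skip it 16.6 and 19.3 TPM. The skipping forms include noncoding transcripts, and among protein-coding Adgrl3 transcripts inclusion of this exon was 33.3% and 37.2%.

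**Figure D3:**
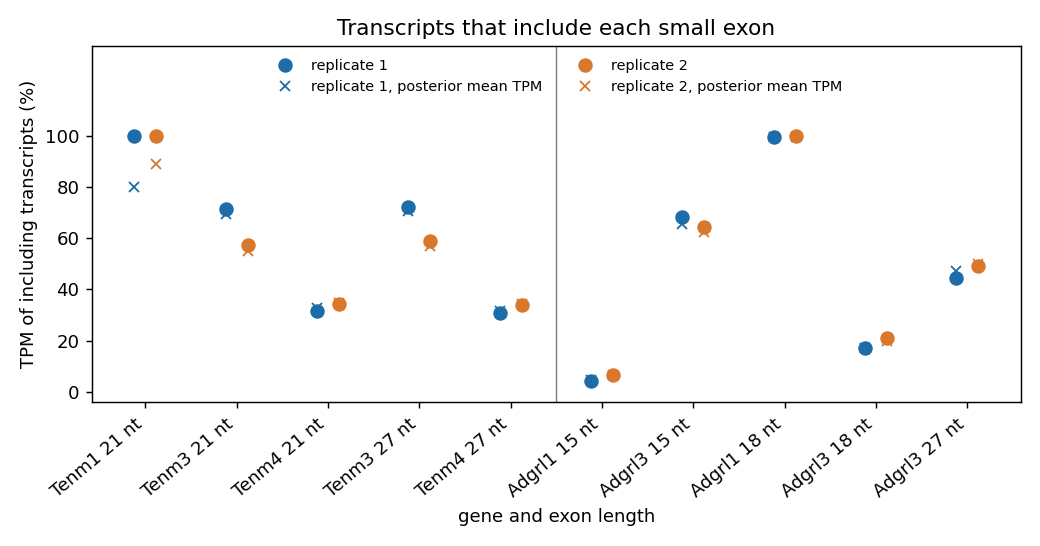
Percent of TPM in transcripts that include each small exon, for the 10 exons with both an including and a skipping transcript in the tables; teneurins left of the line, latrophilins right. Circles are deposited TPM and crosses posterior mean TPM. The 15-nt exon of Adgrl1 is at 4.33% and 6.61%, that of Adgrl3 at 68.2% and 64.2%.

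The replicates were then compared gene by gene. An exact two-sided binomial test was run on the expected counts of each library, scaled by its gene total, with Benjamini-Hochberg adjustment over 17664 genes with a mean of at least 10 counts. It sets the gap between the libraries against counting noise alone and compares no conditions. At an adjusted p below 0.05 it called 34.4% of all genes tested, 15.7% as higher in replicate 2 and 18.7% as lower. Of the 10 members it called 5, with 2 higher and 3 lower. Among the 7781 genes with at least the count of the lowest member, 48.0% were called, so the members' share was near that of genes of like depth.

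Flrt3 rose from 2545 to 2735 expected counts, a log2 ratio of 0.16, with adjusted p = 0.00042 in the exact binomial test. Tenm2 rose from 3285 to 3439, a log2 ratio of 0.12 (adjusted p = 0.0028, exact binomial test). Tenm4 fell from 2860 to 2434 counts, a log2 ratio of -0.18 (adjusted p = 7.5e-05, exact binomial test). These were the members called with the same direction under TMM and DESeq2 scaling too. TMM scaling called 35.5% of all genes tested, 20.8% as higher and 14.7% as lower, and DESeq2 scaling 35.1%, 19.5% as higher and 15.6% as lower. Adgrl2 fell from 11070 to 10079 counts (log2 ratio -0.08) and Flrt2 from 3649 to 3298 (log2 ratio -0.09). Neither Adgrl2 nor Flrt2 was called under TMM factors or the spike-in total. Under DESeq2 scaling Adgrl2 was called as lower and Flrt2 was not called. Of all genes tested, 43.4% differed by more than the largest member difference. No member passed a minimum of 1.5-fold, which 5.95% of all genes tested passed. Both shares take in genes with fewer counts than any member, so they are not shares at like depth. The median absolute log2 ratio was 0.148 over all genes tested and 0.095 over the 7781 genes with at least the count of the lowest member.

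Counts and TPM did not always move together. By TPM 8 of 10 members were higher in replicate 2, with a median log2 ratio of 0.07, beside 0.04 over all genes tested. By counts the median was -0.02, beside -0.03 over all genes tested. Tenm4 had a log2 ratio of 0.05 by TPM and -0.18 by counts, and its full-length coding TPM had -0.09. With counts scaled by the spike-in total, the median ratio of genes with at least 1 TPM moved to 0.11 and 80.6% of all calls were higher in replicate 2, beside 45.7% with the gene total and 58.5% with TMM factors. Under spike-in scaling 6 members were called, all higher, and neither Tenm4, Adgrl2 nor Flrt2 was among them. Of all genes tested, spike-in scaling called 43.7%, with 35.2% higher and 8.46% lower. Between the same libraries the log2 ratio of summed TPM was -0.73 for choroid plexus and -0.29 for meningeal markers. It was 0.60 for forebrain position markers (10.4 and 15.8 TPM), 0.34 for oligodendrocyte lineage, 0.29 for red cell and 0.19 for Purkinje lineage markers. The forebrain sum was nearly all Lhx2, at 10.4 and 15.1 TPM. The other 6 of the 12 marker lists lay between -0.09 and 0.06. The part of these markers in the members' differences was not tested.

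**Figure D4:**
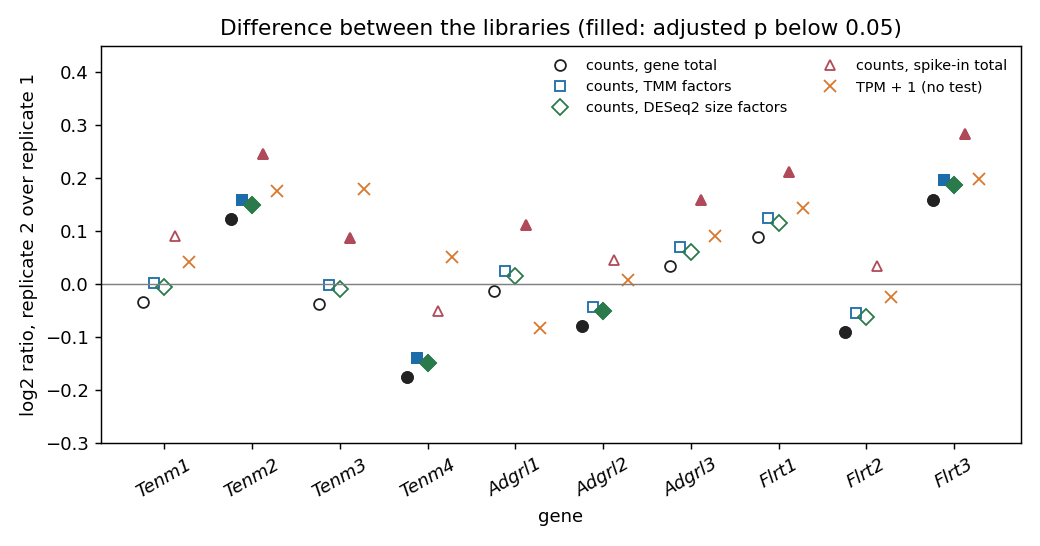
Log2 ratio of replicate 2 over replicate 1 for each gene, from counts under 4 scalings and from TPM with a pseudocount of 1. Filled marks passed an adjusted p below 0.05 in the exact binomial test. Flrt3 and Tenm2 are above 0 throughout, and Tenm4 is below 0 by counts and above 0 by TPM.

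Other genes of the pathway were present as well. All 17 listed partners and relatives reached 1 TPM in both replicates, with a median mean level of 20.7 TPM beside 32.4 TPM for the 10 members. Gpc3 stood at 96.4 and 81.9 TPM and Nrxn3 at 74.3 and 78.5 TPM. Nrxn2 and Nrxn3 encode neurexins, presynaptic adhesion proteins that can bind latrophilins, and Gpc3 encodes a glypican, a surface proteoglycan that binds Unc5 receptors. Nrxn2 stood at 46.5 and 54.3 TPM. Dag1, which encodes the matrix receptor dystroglycan, stood at 60.0 and 66.3 TPM.

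The netrin receptors that bind Flrt proteins were lower than Flrt2 and Flrt3. Unc5c stood at 18.6 and 15.6 TPM, Unc5a at 12.1 and 13.7 TPM, Unc5d at 5.93 and 5.77 TPM and Unc5b at 2.30 and 2.29 TPM. Fgfr1, a growth factor receptor that also binds Flrt proteins, stood at 32.6 and 34.9 TPM. Adgrl4, a relative of the latrophilins known from endothelium, stood at 9.87 and 8.34 TPM. The binomial test called 4 of the 17, beside 34.4% of all genes, with Nrxn2 higher in replicate 2 (log2 ratio 0.20) and Unc5c (-0.15), Gpc3 (-0.31) and Shank1 (-0.31) lower. None reached 1.5-fold, beside 5.95% of all genes. Under TMM factors 7 were called, 4 higher and 3 lower, beside 35.5% of all genes. Unc5c and Shank1, and Unc5a, Unc5b, Unc5d, Fgfr1 and Adgrl4, were named for their roles or calls after their values were seen.

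Several members overlap other genes, and the strand setting of the counting is not given in the sources used here. Of 34 annotated genes that overlap a member, 22 were in the tables and 5 had at least 1 TPM, all on the strand opposite to the member. Flrt3 lies inside Macrod2, which had 48.6 and 49.3 TPM, more than Flrt3 itself. Flrt1 lies inside Macrod1, at 5.25 and 4.22 TPM. Sh2d1a, at 4.15 and 5.13 TPM, overlaps the 3′ end of Tenm1 by 1465 bases, and Gm19744, at 5.04 and 5.13 TPM, overlaps Tenm3 by 287 bases. The antisense gene Gm16054, at 1.88 and 2.08 TPM, overlaps Adgrl3. These are overlaps of whole gene spans, introns included, and overlap between exons was not examined. If strand was not used, reads cannot be told apart where exons of both genes overlap.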

How the data were processed

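Per the file headers and library descriptions, reads were assigned by the authors to mm10 with annotation M4, separately per replicate. No source used here names the aligner, the counting tool or the strand setting. Expected counts were deposited by the authors without normalisation. The deposited TPM and FPKM values were scaled by the authors over 69691 features, 96 spike-ins and 26248 features with numeric identifiers included. The deposited interval bounds are score values whose level is not stated. The deposited percent of a gene held by each transcript served as an alternative.

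Symbols, coordinates and exons came from GENCODE M21 (GRCm38, the same assembly). Identifiers matched for 42462 genes and not for 884. Of 84 member transcripts, 75 had the same length in M21 and 1 was not in it. Exon sequences were read from the M21 transcript sequences. Detection needed 1 TPM in both replicates. Log2 TPM ratios used a pseudocount of 1 and are replicate 2 over replicate 1. For the exact binomial test expected counts were rounded. The test was checked on simulated data with counting noise alone. That check does not cover further spread between replicates. Depth is the total of expected counts, and no source used here mentions molecular identifiers, so p-values cover counting noise only. Means are ± SD (n = 2).

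The members and lists were chosen with earlier results of these data known. Named genes were the 10 members, the 6 highest of the 17 partners and any called with 1.5-fold, overlapping genes with at least 1 TPM, and transcripts with at least 10% of a gene's TPM; a few genes this takes in are not reported here. Full-length and small-exon measures were chosen after seeing the data. Alternatives were posterior mean TPM, FPKM, TPM without spike-in, mitochondrial and numeric features, other limits and pseudocounts, size factors of DESeq2 1.42.0, TMM factors of edgeR 4.0.16, the spike-in total, and each replicate alone. Software was Python 3.11.15 with pandas 2.3.3, scipy 1.17.1, numpy 2.4.6 and matplotlib 3.10.9, and R 4.3.3.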

Additional observations from a re-analysis of the deposited data

How the results depend on the processing

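All 10 members stayed detected at limits of 0.5, 2 and 5 TPM, by posterior mean TPM, by FPKM and in each replicate alone. Family totals by FPKM were 125.8 for latrophilins, 70.4 for teneurins and 41.3 for Flrt genes. Without spike-in, mitochondrial and numeric features they were 238.9, 133.9 and 78.5 TPM. Both measures rescale all genes of a library by the same factor, so neither could change the order. By posterior mean TPM the totals were 207.9, 117.3 and 67.6 TPM, in the same order. By full-length coding TPM the order did change, with Flrt genes at 68.8 TPM above teneurins at 45.2 TPM. In single replicates the gene-level totals ranged from 210.0 to 211.0 TPM for latrophilins. They ranged from 113.0 to 122.9 TPM for teneurins and from 66.6 to 71.9 TPM for Flrt genes. By the exact binomial test, TMM factors called 3 members, 2 higher and 1 lower, beside 35.5% of all genes tested. DESeq2 size factors called 4 members, 2 higher and 2 lower, beside 35.1% of all genes tested. The spike-in total called 6 higher and 0 lower, beside 43.7% of all genes tested. A 1.5-fold minimum called 0 members, against 5 with no minimum, beside 5.95% of all genes tested. Of the 17 partners, TMM factors called 7 (4 higher), DESeq2 size factors 5 (2 higher) and the spike-in total 10 (8 higher), beside 35.5%, 35.1% and 43.7% of all genes. The log2 ratio of Tenm4, positive by TPM, was -0.141, -0.149 and -0.0522 with TMM, DESeq2 and spike-in scaled counts. That of Adgrl2 was -0.0436 and -0.0519 with TMM and DESeq2, and that of Flrt2 was 0.0345 with the spike-in total; the cause was not tested. No paired analysis was possible because both samples belong to 1 group. Some transcript levels rest on few counts, such as Tenm2-207 on 32 and 35.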
